A study of Mus musculus with 11 samples.

Results

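The adrenal medulla and the superior cervical ganglion of the mouse were compared gene by gene on whole-transcript microarrays. The comparison took the 8 arrays whose titles name one of these tissues, 4 for each, out of the 11 arrays of the series. The other 3 arrays held carotid body, a small chemosensory organ, and served only in the shared estimate of the spread. Genes were the array features paired with exactly 1 gene symbol, with 1 feature kept for each gene, which left 30142 genes, all of them compared. Both tissues came from C57B6 mice, described in the study's design text as C57 wildtype, of both sexes and 2 months old. Each adrenal medulla array and each ganglion array held RNA pooled from 3 mice, so the spread between arrays is the spread between pools, not between single animals. No transgene, deletion or treatment is named for any group. Differences are adrenal medulla minus ganglion on the scale of the deposited log2 signal, means carry the SD over n = 4 arrays, and differences carry the standard error (SE) of the limma fit. That fit covers all 11 arrays, so an SE also takes in the spread between carotid body arrays and can exceed what the 8 compared arrays show.

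Chromaffin cells of the adrenal medulla and the principal neurons of sympathetic ganglia both come from the neural crest, and both make noradrenaline from tyrosine. Chromaffin cells have no axon. They pack catecholamines, mostly adrenaline, with chromogranins into large dense granules and release them into the blood, directly beneath a cortex that makes steroid hormones. Sympathetic neurons send long axons to their target organs, release noradrenaline from varicosities, and take much of it up again.

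The labels were first set against genes that define each tissue. Pnmt, the methyltransferase that makes adrenaline, read 14.63, 13.39, 14.77 and 13.72 on the 4 adrenal medulla arrays and 5.18, 5.18, 5.07 and 5.28 on the 4 ganglion arrays. Tubb3, the neuronal beta-tubulin, read 7.64, 7.61, 8.11 and 7.56 in adrenal medulla and 17.55, 16.96, 17.08 and 17.63 in ganglion. Neither gene's values overlapped between the tissues, and both went the way the labels say. The adrenal medulla arrays also carried transcripts of the adrenal cortex. Cyp11b1, the last enzyme of corticosterone synthesis and a product of the cortex, read 19.49, 19.74, 19.50 and 19.70 on them, close to the top of each array's range, and 5.37, 5.29, 4.94 and 5.01 on the ganglion arrays. The pools labelled adrenal medulla therefore held cortical RNA, and for a gene that both layers of the gland can express the layers cannot be told apart. In bulk tissue fewer cells of a type and less RNA per cell cannot be told apart either.

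Pearson correlations over all genes were 0.9944 to 0.9962 between adrenal medulla arrays, 0.9895 to 0.9956 between ganglion arrays and 0.9085 to 0.9223 across the tissues. A background bound was set at the 95th percentile of 349 protein-coding genes of the vomeronasal receptor and hair keratin-associated families, which gave 5.35 for adrenal medulla and 5.45 for ganglion. Where an array of the lower tissue read below its bound, that array was set to the bound and the fold change is given as a lower limit ("at least"). A fold is also a lower limit where the mean of the higher tissue lay within 0.5 of the array maximum, where signal may be compressed. Ganglion arrays 1 and 4 stood apart on the control features of the chip. Their scores on the first principal component of those features were 59.5 and 54.4, against 15.5 and 5.46 for ganglion arrays 2 and 3 and -9.92 to 5.39 for the adrenal medulla arrays. The carotid body arrays scored -54.6 to -16.8. Every ganglion array scored above every adrenal medulla array, so the component overlaps with tissue. Used as a covariate below, it can take away part of the tissue difference itself.

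Of the 30142 genes, 3987 (13.2%) differed at an adjusted p under 0.05 by limma with Benjamini-Hochberg adjustment and by at least 2-fold. These are called below. Of them, 1725 were higher in adrenal medulla (5.72% of all genes) and 2262 higher in ganglion (7.5%). Among 19043 protein-coding genes the shares were 7.08% and 9.17%, against which the gene lists below can be read. Among the 17126 genes above the background bound in either tissue they were 10% and 13.1%. These are the closer comparison for lists whose members are mostly above the bound. The largest differences were unevenly divided. At 8-fold or more, 200 genes were higher in adrenal medulla and 511 in ganglion, and at 32-fold or more 54 and 221. The division of the called genes depended on scaling. Adrenal medulla held 43.3% of the calls on the deposited values and 53.9% (2218 against 1896 genes) when quantile normalization was repeated over the named genes. The median difference over all genes was -0.08 and became 0.04 under that repeat and 0.01 under median centring, where 1996 and 2072 genes were called. In all, 41 called genes had arrays whose values overlapped between the tissues. Without any test, the 4 arrays of one tissue all lay above those of the other in 16.7% of genes for adrenal medulla and 20.2% for ganglion, so separation of the arrays is a common feature and not a result by itself.

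**Figure D1:**
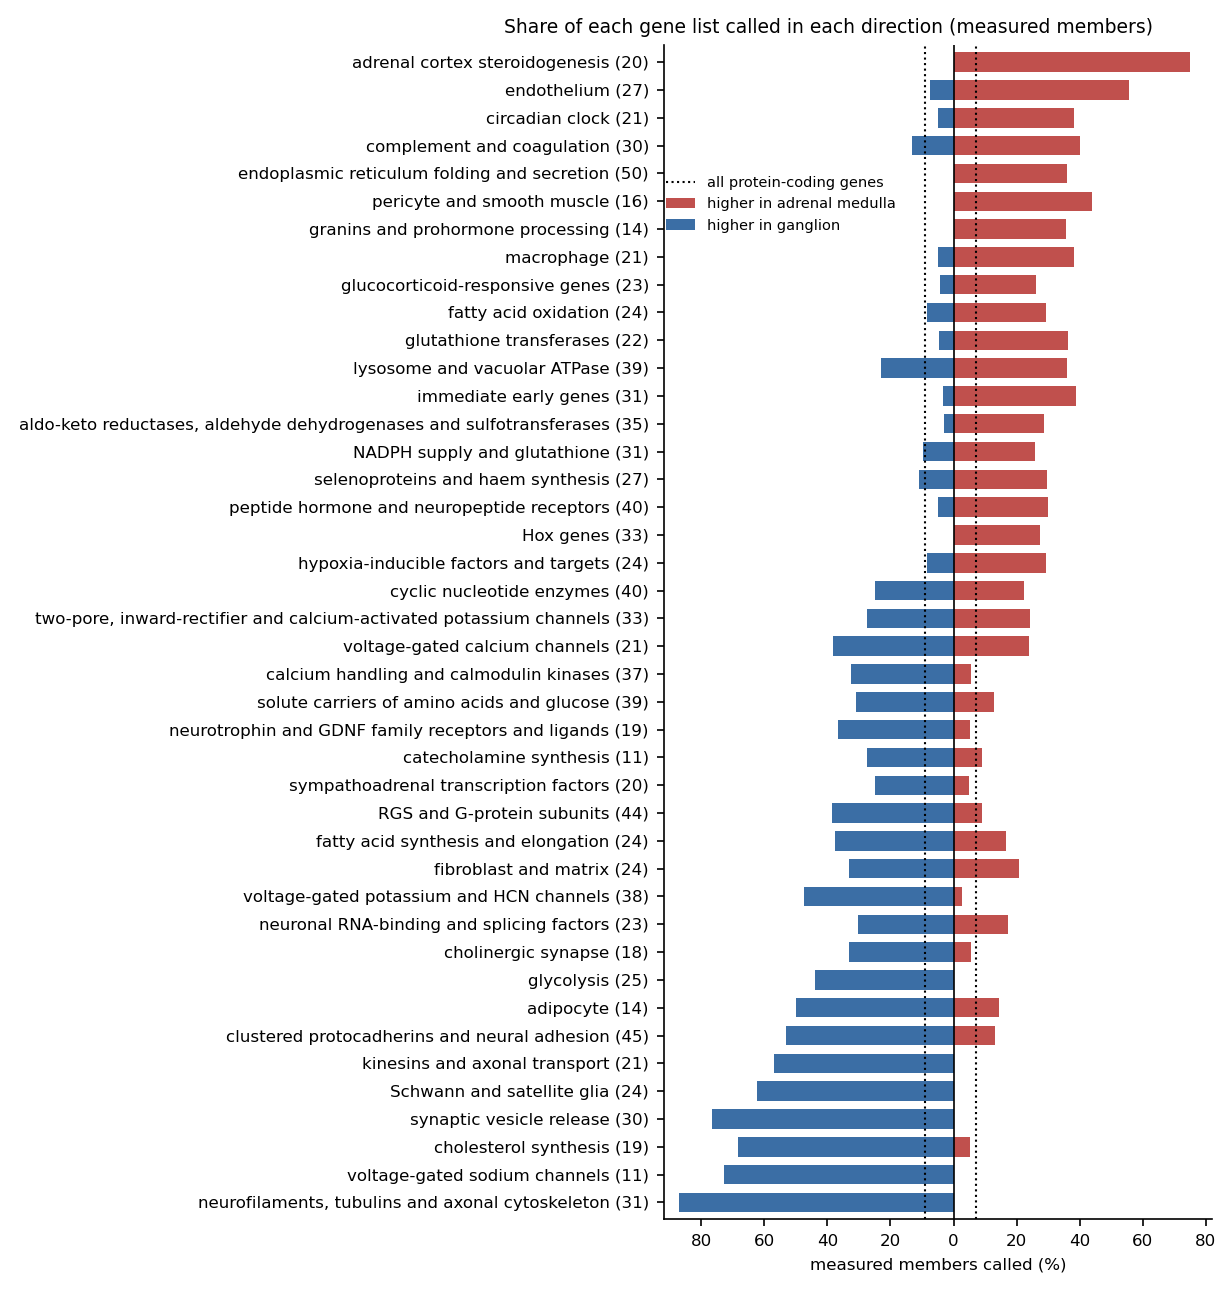
Share of measured members called higher in adrenal medulla (red, to the right) or in superior cervical ganglion (blue, to the left), for gene lists with at least 10 measured members and at least 25% of them called in one direction. The number of measured members stands in brackets, dotted lines mark the shares of all protein-coding genes (7.08% and 9.17%), and lists are ordered by median difference, from axonal cytoskeleton (27 of 31 members higher in ganglion) to cortex steroidogenesis (15 of 20 higher in adrenal medulla).

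The genes furthest higher in adrenal medulla included several of the cortex. Of the 15 with the largest differences, Cyp11b1, Cyp11a1, Star, Hsd3b1 and Cyp21a1 are steroid synthesis genes of the cortex. Star, which carries cholesterol into mitochondria, read 18.42, 18.42, 18.41 and 18.41 in adrenal medulla and 5.17, 5.24, 4.78 and 5.07 in ganglion, where no array was above the background bound, so it was at least 8022-fold higher. Akr1cl and Scarb1, given below, are also in the cortex steroidogenesis list. Not all of the 15 belong to it. Kcnk9, which encodes the acid-sensitive potassium channel TASK-3, read 16.47, 16.52, 16.75 and 16.54 in adrenal medulla and 6.87, 5.60, 6.46 and 6.01 in ganglion. Every ganglion array was far below every adrenal medulla array, with a difference of 10.34 ± 0.24 (adjusted p = 4.4e-10, 1293-fold). Dlk1, an imprinted Notch-family ligand, read 14.52, 14.48, 14.52 and 14.51 against 5.96, 5.65, 5.53 and 5.82. The adrenal medulla pools hardly differed from one another, and the gene was 435-fold higher there. The remaining members included the alcohol dehydrogenase Adh1 (1395-fold), the drug efflux pump Abcb1b (890.1-fold), the aldo-keto reductase Akr1cl (at least 393-fold), the atypical respiratory subunit Ndufa4l2 (at least 215-fold), the HDL receptor Scarb1 (138-fold) and chromogranin A, given below.

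The 15 genes furthest higher in ganglion included receptors and genes of the cytoskeleton. Htr3a, a subunit of the serotonin-gated cation channel, read 7.38, 7.45, 7.38 and 7.13 in adrenal medulla and 18.34, 18.27, 18.13 and 18.47 in ganglion. No adrenal medulla array came near the ganglion values, and the difference was -10.97 ± 0.53 (adjusted p = 4.5e-08, 2003-fold higher in ganglion). Its partner subunit Htr3b was second, at 6.35 ± 0.20 in adrenal medulla and 16.03 ± 0.24 in ganglion. Tubb3 (762-fold), peripherin Prph (596-fold), Tubb2b (374-fold) and the light neurofilament chain Nefl (196-fold) make up the neuronal cytoskeleton in this group. The others were the tetraspanin Tspan8 (at least 581-fold), the asymmetric dimethylarginine hydrolase Ddah1 (595-fold), the vesicle glycoprotein Sv2c (at least 561-fold), gamma-synuclein Sncg (307-fold), the fusion adaptor Napb (274-fold), the growth factor receptors Ret (362-fold) and Ngfr (239-fold), the actin regulator Avil (272-fold) and the phosphatase inhibitor Ppp1r1c (at least 209-fold).

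**Figure D2:**
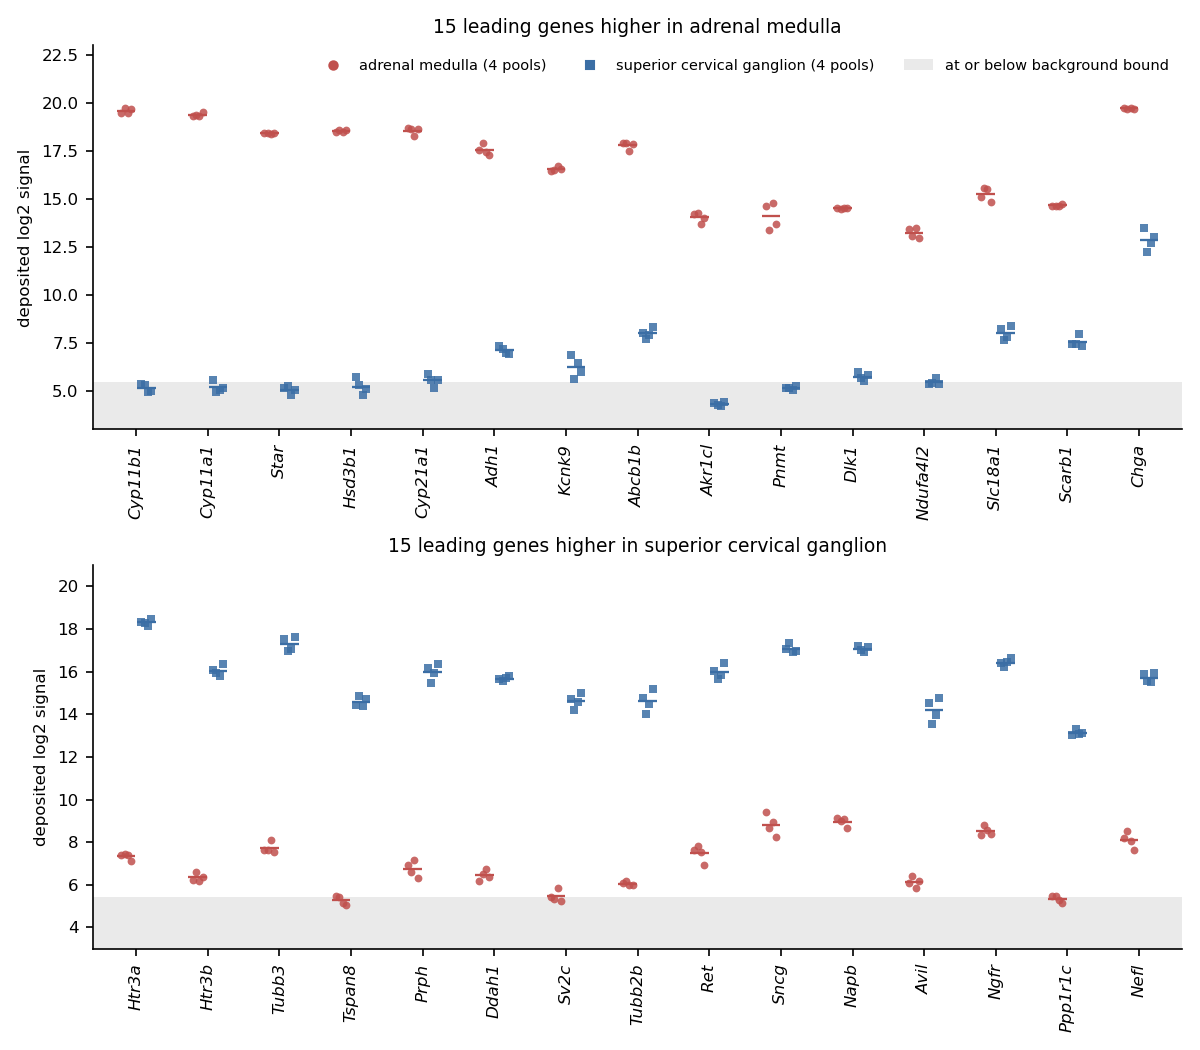
Deposited log2 signal of the 15 genes with the largest difference in each direction, in each of 4 adrenal medulla pools (red circles) and 4 superior cervical ganglion pools (blue squares), with horizontal lines at the means and grey shading up to the higher of the background bounds. In every gene shown the values of the tissues do not overlap, a condition of the choice, and most cortex genes lie within the grey area in ganglion.

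Most catecholamine synthesis genes were not called. Th, tyrosine hydroxylase, the rate-limiting enzyme, read 19.57, 19.64, 19.61 and 19.45 in adrenal medulla and 19.30, 19.09, 19.18 and 19.30 in ganglion, without overlap. The difference of 0.35 ± 0.21 was under 2-fold and did not pass the limma test (adjusted p = 0.23). Its SE takes in the spread between the carotid body arrays. Th was also uncalled with the 8 arrays of the 2 tissues alone. Dbh, dopamine beta-hydroxylase, read 19.84, 19.84, 19.84 and 19.84 and 19.83, 19.81, 19.83 and 19.83. Dbh in both tissues and Th in adrenal medulla lay within 0.5 of the array maximum, where signal may be compressed, so no fold is given. Of 11 measured synthesis genes 1, Pnmt, was higher in adrenal medulla (at least 411-fold) and 3 were higher in ganglion. These were the decarboxylase Ddc at 14.39 ± 0.24 against 16.22 ± 0.24 and the cofactor enzymes Pcbd1 at 11.04 ± 0.18 against 13.16 ± 0.17 and Pts at 9.01 ± 0.23 against 10.56 ± 0.58, which serve the tetrahydrobiopterin that Th needs. Gch1, the first enzyme of tetrahydrobiopterin synthesis, read 12.36 ± 0.39 against 12.29 ± 0.24 and was not called.

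Transport and breakdown of monoamines separated the tissues. The 2 vesicular monoamine transporters went in opposite directions. Slc18a1, the endocrine form, read 15.12, 15.56, 15.54 and 14.86 in adrenal medulla and 8.22, 7.63, 7.83 and 8.37 in ganglion, 153-fold higher in adrenal medulla. Slc18a2, the neuronal form, read 13.45, 13.70, 13.79 and 13.31 and 16.78, 16.19, 16.42 and 16.99, 8.19-fold higher in ganglion. The arrays of the tissues did not overlap for either gene. Slc6a2, the noradrenaline transporter that returns transmitter to the nerve ending, read 10.96, 11.47, 11.89 and 12 in adrenal medulla and 18.51, 18.36, 18.45 and 18.77 in ganglion. All ganglion arrays were above all adrenal medulla arrays, by 123-fold on average (adjusted p = 4.3e-06). Maoa, which degrades noradrenaline, followed it at 11.69 ± 0.22 in adrenal medulla and 16.74 ± 0.35 in ganglion (33.1-fold higher in ganglion), and Maob was 3.43-fold higher there, a call that ended with the control-feature component as a covariate (-0.70 on the log2 scale) and without ganglion arrays 1 and 4 (-1.26). The serotonin transporter Slc6a4 went the other way, at 14.53 ± 0.35 in adrenal medulla and 8.29 ± 0.59 in ganglion (75.2-fold higher in adrenal medulla).

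The granule genes that were called were higher in adrenal medulla. Of 14 measured granins and prohormone-processing genes 5 were higher in adrenal medulla and 0 in ganglion, with a median difference of 0.71 against -0.08 for all genes. Chga, chromogranin A, read 19.75, 19.70, 19.74 and 19.70 in adrenal medulla and 13.50, 12.24, 12.71 and 13.02 in ganglion, and the adrenal medulla values again lay at the top of the range. Scg2, secretogranin II, read 18.64, 18.70, 18.70 and 18.48 and 13.79, 12.98, 12.85 and 13.64. No array of one tissue entered the range of the other, and the folds were at least 116-fold for Chga and 39.8-fold for Scg2. Chgb was at least 32.9-fold higher, the granule protein Resp18 13.5-fold and Pcsk1, the convertase that cuts prohormones, 8.88-fold. The 9 other members were not called. With the control-feature component as a covariate 8 members were called in place of 5.

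Promoter sequences are shown for the granule genes Scg2, Chgb and Pcsk1 and for Th, because each holds the full cyclic AMP response element TGACGTCA, the palindrome bound by CREB, close to the gene start. They come from RefSeq (build GRCm38.p6), run 5′ to 3′ on the gene's own strand, and cover the 250 bases before the gene start with the element in capitals. The search was chosen after the expression values were known.
Scg2, chr1:79440027-79440276, minus strand: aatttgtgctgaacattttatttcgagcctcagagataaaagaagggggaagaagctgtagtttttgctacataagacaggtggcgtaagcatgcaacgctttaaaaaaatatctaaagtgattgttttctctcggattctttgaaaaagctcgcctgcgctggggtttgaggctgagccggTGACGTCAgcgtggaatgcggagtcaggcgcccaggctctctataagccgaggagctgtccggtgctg
Chgb, chr2:132781392-132781641, plus strand: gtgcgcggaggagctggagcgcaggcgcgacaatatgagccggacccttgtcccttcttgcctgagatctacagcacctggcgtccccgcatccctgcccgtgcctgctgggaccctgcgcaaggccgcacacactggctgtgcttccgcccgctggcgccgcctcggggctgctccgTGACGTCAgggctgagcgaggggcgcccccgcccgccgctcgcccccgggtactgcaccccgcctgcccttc
Pcsk1, chr13:75089607-75089856, plus strand: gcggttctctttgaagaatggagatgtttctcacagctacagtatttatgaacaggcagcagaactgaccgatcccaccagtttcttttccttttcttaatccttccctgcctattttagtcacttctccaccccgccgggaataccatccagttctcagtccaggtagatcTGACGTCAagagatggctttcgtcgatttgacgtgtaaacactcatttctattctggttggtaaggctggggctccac
Th, chr7:142899996-142900245, minus strand: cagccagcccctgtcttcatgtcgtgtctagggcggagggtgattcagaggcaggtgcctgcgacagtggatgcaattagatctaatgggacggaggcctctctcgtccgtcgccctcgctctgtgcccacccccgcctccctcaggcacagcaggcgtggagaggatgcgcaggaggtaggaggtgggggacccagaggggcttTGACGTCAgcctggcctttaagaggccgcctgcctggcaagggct
The element began 68, 72, 78 and 45 bases before the start of Scg2, Chgb, Pcsk1 and Th. It was present in 508 of 32851 promoter windows of that table (1.55%), in 3 of 13 windows of the granin list and in 1 of 11 windows of the catecholamine list. Scg2, Chgb and Pcsk1 were higher in adrenal medulla and Th was not called. The element was 1 of 4 motifs searched in 6 lists, with CAAGGTCA, CACGTG and CACCCCAC the others. CACGTG was in 7 of 28 windows of the immediate early list (25%) and 5 of 22 of the cholesterol synthesis list (22.7%), against 6.02% of all windows. CAAGGTCA was in none of the 8 windows of the cortex list, against 1.33% of all. Those windows covered 7 of the 20 measured cortex genes, too few to judge a motif this rare. Each window searched was the 250 bases before the start, both strands were searched, and a match describes letters only.

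Secreted peptides were few, and those called were higher in adrenal medulla. Of 20 measured precursors 4 were called, all 4 in that direction, and 9 of the 20 were above background in either tissue. Npy, neuropeptide Y, a co-transmitter of both cell types, read 18.10, 18.03, 18.04 and 17.74 in adrenal medulla and 15.20, 15.10, 15.17 and 15.06 in ganglion. The ganglion values lay close together and below all adrenal medulla values, 7.19-fold apart. Adm, the vasodilator adrenomedullin, read 14.20 ± 0.37 in adrenal medulla and 8.72 ± 0.52 in ganglion (44.7-fold higher in adrenal medulla), galanin Gal was 5.2-fold higher and Cartpt 2.09-fold. Cartpt fell short of 2-fold without adrenal medulla array 1 (0.97), adrenal medulla array 2 (0.96) or ganglion array 2 (0.99). Penk, proenkephalin, read 6.30 ± 0.35 against 5.51 ± 0.25 and Vip 5.94 ± 0.33 against 6.03 ± 0.26. Neither was called, and Penk was called only with the control-feature covariate (1.04).

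Of 20 measured sympathoadrenal transcription factors 1 was higher in adrenal medulla, 5 were higher in ganglion and 14 were not called. Hand2 read 12.80 ± 0.42 in adrenal medulla and 12.98 ± 0.29 in ganglion, Tfap2b 13.22 ± 0.49 against 12.76 ± 0.29, Phox2a 9.12 ± 0.12 against 9.79 ± 0.48 and Hand1 10.48 ± 0.30 against 10.85 ± 0.50, and none of the 4 passed the test. Tfap2b was called with the control-feature covariate alone (1.24). The 5 higher in ganglion included Lmo1 (4.93-fold), Isl1 (4.01-fold), Ebf1 (3.63-fold) and Eya1 (3.13-fold). Egr1, an activity-induced factor that also drives Pnmt, was the 1 member higher in adrenal medulla and is described with the immediate early genes. The Hox genes, which record position along the body axis, showed calls in a single direction. Of 33 measured Hox genes 9 were higher in adrenal medulla and 0 in ganglion. Hoxb9 read 8.40, 7.97, 7.58 and 7.64 in adrenal medulla and 4.37, 4.60, 4.24 and 4.42 in ganglion, where all arrays were below the bound (at least 5.46-fold). Other members higher there were Hoxb6 (at least 6.9-fold), Hoxb5 (at least 4.7-fold) and Hoxb8 (at least 4.71-fold). The Hox members called belong to paralogue groups 5 to 9, and 15 of the 33 were above background in either tissue.

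Steroid synthesis genes of the cortex were called in a single direction. Of 20 measured cortex genes 15 were higher in adrenal medulla and 0 in ganglion, with a median difference of 4.31. They include Cyp11a1, which cuts the cholesterol side chain, at 19.39 ± 0.11 against 5.18 ± 0.26, and the ACTH receptor Mc2r at 9.03 ± 0.31 against 4.95 ± 0.46 with its accessory protein Mrap at 9.53 ± 0.56 against 5.49 ± 0.30. Cyp11b2, the aldosterone synthase of the outermost cortical zone, read 8.32, 9.24, 9.70 and 11.46 on the adrenal medulla arrays and 4.44, 4.38, 4.17 and 4.65 on the ganglion arrays. It varied more between adrenal medulla pools than any other cortex gene called, and pool 4 was highest. Nr0b1 read 4.65 ± 0.16 against 4.62 ± 0.18, at background in both tissues. The mean log2 signal over the cortex list was 11.37 to 11.73 on adrenal medulla arrays and 5.45 to 5.78 on ganglion arrays, where 13 of the 20 genes were at or below the background bound.

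Cholesterol synthesis genes were mostly called towards ganglion. Of 19 measured genes of the mevalonate and sterol route 13 were higher in ganglion and 1 in adrenal medulla, with a median difference of -1.97. Hmgcs1, which commits acetoacetyl-CoA to the route, read 12.71, 13.79, 10.94 and 11.07 in adrenal medulla and 16.80, 16.23, 16.41 and 16.91 in ganglion. Every ganglion array was above every adrenal medulla array, but the adrenal medulla pools were themselves spread, with pool 2 highest and pools 3 and 4 lowest. The difference was -4.46 ± 0.60 (adjusted p = 1.4e-04, 22-fold). Mevalonate kinase Mvk was 11.5-fold higher in ganglion, squalene epoxidase Sqle 8.08-fold, and Hsd17b7 7.4-fold. The exception was Dhcr7, which catalyses the last step to cholesterol, at 10.90 ± 0.20 in adrenal medulla and 8.93 ± 0.26 in ganglion (3.92-fold higher in adrenal medulla). The mean of the list was 8.98 to 10.04 on adrenal medulla arrays and 10.84 to 11.27 on ganglion arrays. Within adrenal medulla 15 of the 19 genes were highest in pool 2 and 13 were lowest in pool 4. Of 29 genes of cholesterol uptake, storage and efflux 4 were higher in adrenal medulla and 5 in ganglion, with a median difference of 0.07. Scarb1, which takes cholesterol esters from HDL, read 14.67 ± 0.04 in adrenal medulla and 7.56 ± 0.27 in ganglion. Hormone-sensitive lipase Lipe was 2.68-fold higher in adrenal medulla, the sterol exporter Abca1 6.14-fold and the lipid droplet protein Plin2 2.49-fold. The sterol carrier Stard4 (4-fold), the plasma esterifying enzyme Lcat (at least 2.6-fold) and the lipid droplet protein Cidea (5.27-fold) were higher in ganglion. The glial and adipocyte lists were also called more often towards ganglion, as given below, and their part in these lipid genes was not tested.

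**Figure D3:**
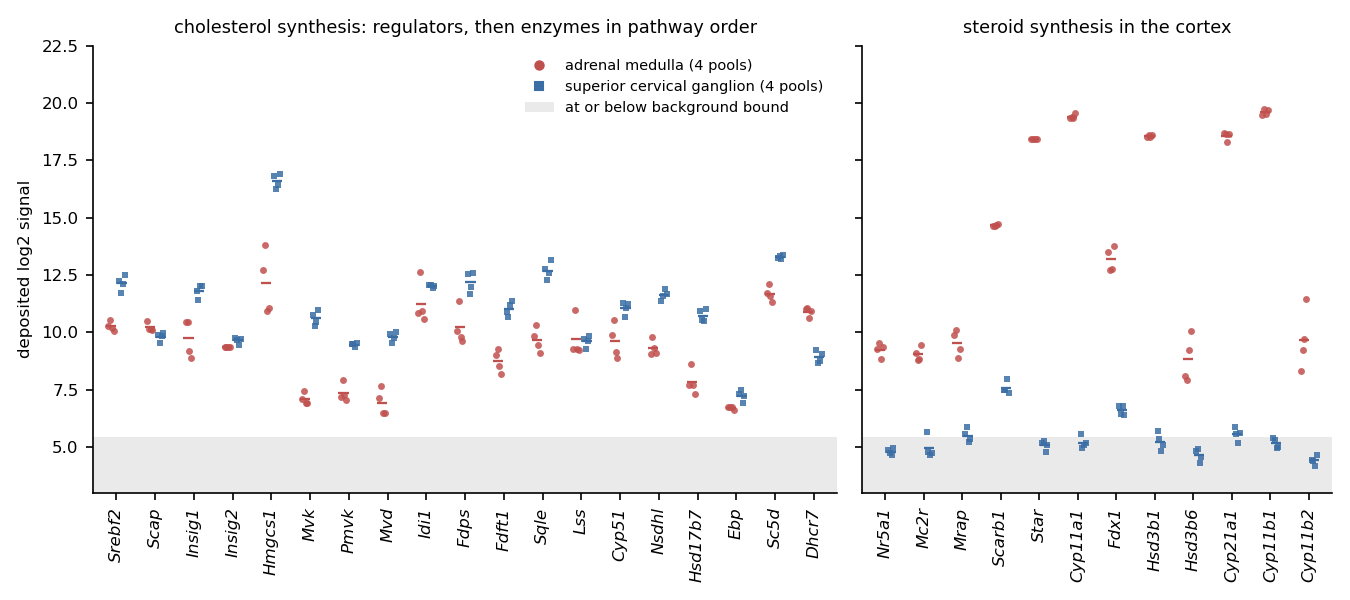
Deposited log2 signal of the 19 measured cholesterol synthesis genes (left, regulators first and then enzymes in the order of the route) and of 12 cortex steroid genes (right), in each adrenal medulla pool (red circles) and ganglion pool (blue squares). Lines mark the means and grey marks values at or below the background bound. By their means 16 synthesis genes lie higher in ganglion, 13 of them called, and 3 higher in adrenal medulla, of which Dhcr7 alone was called. All 12 steroid genes lie higher in adrenal medulla.

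Fatty acid genes divided by function. In mitochondrial oxidation 7 of 24 genes were higher in adrenal medulla and 2 in ganglion. They were led by the arachidonate-activating enzyme Acsl4 (6.42-fold), Hadh (3.53-fold), the medium-chain dehydrogenase Acadm (3.18-fold) and Echs1 (3.06-fold). Ppara, the receptor that induces fatty acid oxidation, was 2.27-fold higher in ganglion. In synthesis and elongation 4 of 24 were higher in adrenal medulla and 9 in ganglion. Me1, the malic enzyme that supplies NADPH, read 18.28 ± 0.12 in adrenal medulla and 14.20 ± 0.05 in ganglion. The desaturases parted from one another. Fads2 (10-fold) and Fads1 (5.1-fold) were higher in adrenal medulla, and Fads3 (5.87-fold) and Scd1 (8.6-fold) in ganglion. The ganglion side also held the elongases Elovl7 (38.8-fold) and Elovl4 (8.47-fold).

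Detoxification and antioxidant genes were called mainly towards adrenal medulla. Of 22 glutathione transferases 8 were higher there and 1 in ganglion, the mitochondrial Gstk1 (12.2-fold) and Gstm7 (8.6-fold), Gstm1 (7.57-fold) and Gstm2 (7.55-fold) leading. Mgst1 read 9.56 ± 0.25 in adrenal medulla and 6.66 ± 0.18 in ganglion and its relative Mgst3 6.90 ± 0.27 in adrenal medulla and 10.70 ± 0.18 in ganglion, in opposite directions. Among aldo-keto reductases, aldehyde dehydrogenases and sulfotransferases 10 of 35 were higher in adrenal medulla. They included Akr1b8 (70.4-fold), Akr1b10 (9.29-fold), Aldh1a3 (at least 9.14-fold) and Aldh1a7 (5.58-fold), and retinaldehyde dehydrogenase Aldh1a1 read 9.99 ± 0.65 in adrenal medulla and 7.67 ± 0.33 in ganglion. The single member higher in ganglion was the neuronal sulfotransferase Sult4a1 (116-fold). Of 31 genes of NADPH supply and glutathione 8 were higher in adrenal medulla and 3 in ganglion. Hmox1, haem oxygenase 1, read 12.40, 11.24, 10.48 and 11.17 in adrenal medulla and 5.74, 6.01, 5.60 and 5.86 in ganglion. Pool 1 was highest and pool 3 lowest in adrenal medulla, and all 4 pools were far above ganglion (45.9-fold). The mitochondrial peroxidase Prdx3 was 11.6-fold higher, the plasma peroxidase Gpx3 4.85-fold and the transhydrogenase Nnt 2.7-fold. Thioredoxin Txn1 was 3.95-fold higher in ganglion and glutathione reductase Gsr 2.95-fold. Alas1, the first enzyme of haem synthesis, which supplies every cytochrome P450, was 11.3-fold higher in adrenal medulla, with the ferritin chain Ftl1 (3.56-fold) and Alad (2.79-fold). The transferrin receptor Tfrc was 3.25-fold higher in ganglion, and selenoprotein W 7.21-fold (Selenow). Of 26 P450 genes outside steroid synthesis 3 were higher in adrenal medulla, with Cyp1b1 (15.1-fold) first, and 6 in ganglion, with Cyp4x1 (at least 7.4-fold) and Cyp2e1 (at least 6.73-fold) first.

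Structure and transport of the axon were called in a single direction. Of 31 neurofilament, tubulin and microtubule-associated genes 27 were higher in ganglion and 0 in adrenal medulla, with a median difference of -2.80. Tubb2a was 175-fold higher, Gap43, a protein of growing axons, 59.5-fold, Stmn2, a microtubule-destabilising protein of axons, 39.7-fold, the heavy neurofilament chain Nefh 13.5-fold and the medium chain Nefm 8.99-fold. In adrenal medulla Nefm read 6.94 ± 0.17 and Stmn2 13.02 ± 0.27, well above the bound of 5.35. Of 21 motor and adaptor genes 12 were higher in ganglion and 0 in adrenal medulla. They included the neuronal kinesins Kif5a (51.8-fold), Kif21a (29.6-fold), Kif5c (12.3-fold) and Kif1a (10.3-fold) and the dynein chain Dync1i1 (7.44-fold).

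Genes of vesicle release were called more often towards ganglion, although both cell types secrete by exocytosis. Of 30 genes 23 were higher in ganglion and 0 in adrenal medulla, with a median difference of -1.76. Napb, the neuronal form of the SNAP adaptor that recycles SNAREs, read 8.97 ± 0.22 in adrenal medulla and 17.07 ± 0.12 in ganglion, and the complexin Cplx1 was 111-fold higher in ganglion. Syt1, the calcium sensor of fast release, read 14.70 ± 0.32 in adrenal medulla and 17.83 ± 0.14 in ganglion (8.74-fold), Syn1 was 7.86-fold higher in ganglion, and the SNARE Snap25 read 17.10 ± 0.31 in adrenal medulla and 18.29 ± 0.08 in ganglion, 2.28-fold higher. Snap25 fell short of 2-fold with the control-feature covariate (-0.85). The folds of these 3 core genes were well below those of Sv2c, Sncg and Napb.

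Adhesion molecules of nerve cells followed with exceptions. Of 45 measured 24 were higher in ganglion and 6 in adrenal medulla, with a median difference of -1.34. Cntnap2 (84.9-fold), Ncam2 (52.7-fold), Cdh8 (at least 27.6-fold) and Chl1 (47.3-fold) led on the ganglion side, and the axonal adhesion molecules L1cam and Ncam1 were 9.71-fold and 4.8-fold higher. On the adrenal medulla side were Pcdh15 (at least 7.06-fold), the cadherins Cdh4 (3.34-fold) and Cdh18 (2.7-fold), and Negr1 (2.43-fold). Axon guidance genes were divided almost evenly, with 11 of 50 higher in adrenal medulla and 12 in ganglion. The repellent Slit2 (7.42-fold) and its receptors Robo2 (at least 4.15-fold) and Robo1 (3.47-fold) were all higher in adrenal medulla, as were the semaphorins Sema5a (12.8-fold) and Sema3f (4.53-fold). The ganglion side held Ntng1 (at least 40.7-fold), Sema3c (17.3-fold), the semaphorin receptors Plxnc1 (15.2-fold) and Plxna4 (8.2-fold), Sema6d (10.6-fold) and the ephrin receptor Epha5 (8.71-fold).

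RNA-binding proteins of neurons showed an exchange between the polypyrimidine tract-binding proteins. Ptbp1, which represses neuronal exons in most tissues, read 12.08, 12.11, 12.05 and 11.89 in adrenal medulla and 8.79, 8.77, 8.83 and 8.63 in ganglion. Its neural relative Ptbp2, singled out after its values were seen, read 8.62, 8.49, 8.81 and 8.74 and 11.31, 10.85, 11.08 and 11.37. The arrays did not overlap for either gene, and the differences were 3.28 ± 0.07 (adjusted p = 2.4e-10) and -2.49 ± 0.12 (adjusted p = 3.6e-08). Of 23 genes in this list 4 were higher in adrenal medulla, the others being Mbnl3 (at least 5.11-fold), Mbnl1 (4.84-fold) and Msi2 (2.34-fold). In ganglion 7 were higher, with Rbfox1 (11.6-fold), Elavl3 (11.2-fold), Celf4 (9.05-fold) and Elavl4 (7.12-fold) leading. Rbfox3 read 5.87 ± 0.09 against 6.63 ± 0.24 and Rest, the repressor of neuronal genes, 7.14 ± 0.12 against 6.63 ± 0.17, and neither was called.

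Cholinergic genes, and glutamate and GABA genes, were called more often towards ganglion (33.3% and 21.6%). Their shares towards adrenal medulla, 5.6% and 8.1%, were near the 7.08% of all protein-coding genes. Of 18 cholinergic genes 6 were higher in ganglion and 1 in adrenal medulla. The nicotinic subunits that carry ganglionic transmission, Chrna3 at 12.12 ± 0.32 in adrenal medulla and 14.21 ± 0.22 in ganglion and Chrnb4 at 12.66 ± 0.18 in adrenal medulla and 15.19 ± 0.39 in ganglion, were 4.27-fold and 5.79-fold higher in ganglion. Chrnb4 lost its call with the control-feature covariate (-1.35) and without ganglion arrays 1 and 4 (-2.20). Chrna5 was 24.1-fold and the muscarinic receptor Chrm2 at least 86.6-fold higher there. Chrna7, which forms a separate nicotinic channel, went the other way at 13.05 ± 0.21 in adrenal medulla and 10.56 ± 0.44 in ganglion (5.62-fold higher in adrenal medulla). Chat and Slc18a3, the genes of acetylcholine synthesis and loading, read 4.21 ± 0.01 against 4.21 ± 0.00 and 3.86 ± 0.12 against 4.13 ± 0.16, at background. Among glutamate and GABA genes 3 of 37 were higher in adrenal medulla, with Gabra3 (8.73-fold) and Gria3 (2.36-fold) first, and 8 in ganglion, with Gria1 (32.6-fold), Gabbr1 (10.3-fold), Gria4 (7.8-fold) and Gabbr2 (7.26-fold) first. The autoreceptor Adra2c read 4.82 ± 0.16 in adrenal medulla and 7.06 ± 0.28 in ganglion (at least 3.28-fold higher in ganglion), and the dopamine receptor Drd2 9.12 ± 0.39 against 9.23 ± 0.09, without a call.

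Of 11 sodium channel genes 8 were higher in ganglion, 0 in adrenal medulla, and all 11 differences were negative. Scn9a, the main peripheral sodium channel, was 44-fold higher in ganglion, Scn2b 14.2-fold and Scn1a 14-fold. Voltage-gated potassium and HCN channels gave 18 of 38 higher in ganglion, led by Kcna1 (33.3-fold), Kcnh5 (at least 19.2-fold), Kcnh7 (at least 14.4-fold) and Kcnd2 (21.3-fold), and the M-current subunit Kcnq3 was 16.1-fold higher. The 1 member higher in adrenal medulla was Kcnip3 (16-fold). Calcium channels were split by type. The L-type subunits Cacna1d (13.3-fold) and Cacna1c (5.47-fold) and the T-type Cacna1h (5.75-fold) were higher in adrenal medulla, with the subunit Cacnb2 (at least 3.95-fold). The N-type Cacna1b (5.99-fold) and P/Q-type Cacna1a (2.63-fold) were higher in ganglion, with the auxiliary subunits Cacna2d3 (17.8-fold), Cacng2 (9.23-fold) and Cacnb4 (6.04-fold). Cacna1d read 10.77, 10.18, 10.97 and 10.75 in adrenal medulla and 6.99, 6.77, 6.98 and 6.98 in ganglion, and Cacna1b read 8.87, 8.68, 9.01 and 8.65 and 11.36, 10.94, 11.46 and 11.76. The order of the tissues was opposite for these 2 genes on every array.

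Background potassium channels included both the strongest adrenal and some strongly ganglionic members. Of 33 tandem-pore, inward-rectifier and calcium-activated channel genes 8 were higher in adrenal medulla and 9 in ganglion. Kcnk3, encoding TASK-1, the close relative of Kcnk9, read 15.38, 14.67, 15.34 and 15.45 in adrenal medulla and 9.03, 8.72, 8.28 and 8.61 in ganglion. Pool 2 was lowest in adrenal medulla and still far above every ganglion pool (93.7-fold). The stretch-sensitive channel Kcnk2 was 11.6-fold higher, the large-conductance calcium-activated channel Kcnma1 3.52-fold and its inactivating subunit Kcnmb2 at least 5.68-fold. On the ganglion side Kcnj3 (56.3-fold), a G-protein-gated rectifier, was followed by Kcnk18 (at least 6.74-fold), Kcnt1 (7.64-fold) and Kcnk10 (at least 5.04-fold). Kcnk9 and Kcnk3 transcripts are known in the cortex as well as in chromaffin cells, and the layers cannot be told apart here.

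**Figure D4:**
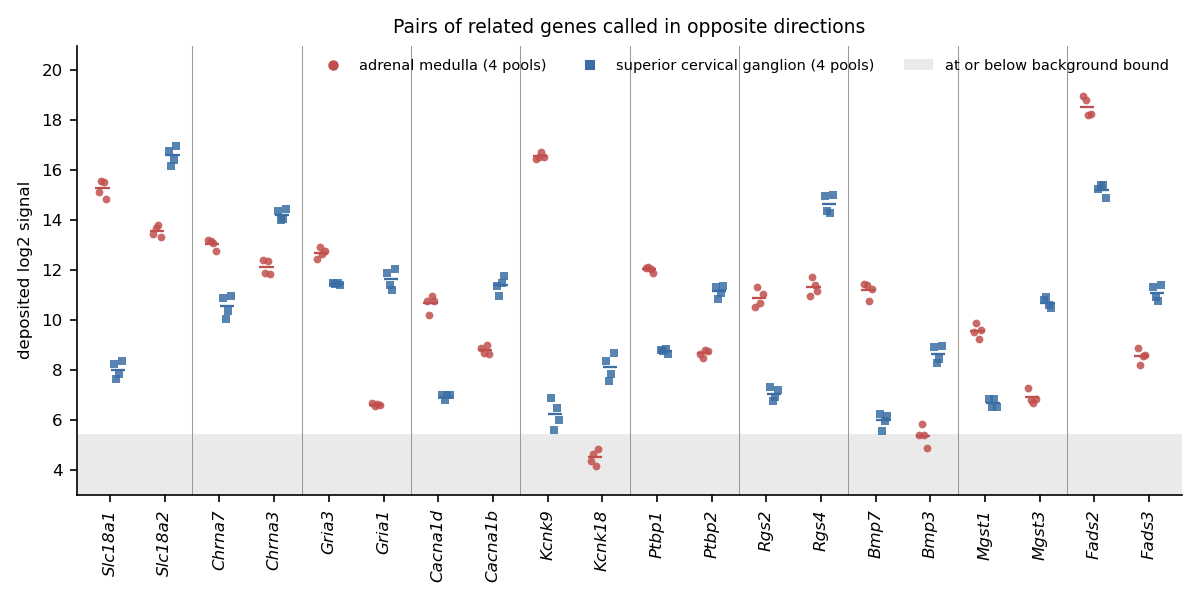
Deposited log2 signal of 10 pairs of related genes called in opposite directions, in each adrenal medulla pool (red circles) and ganglion pool (blue squares), with lines at the means and grey up to the background bound. In each pair the first gene is higher in adrenal medulla and the second in ganglion, for example Slc18a1 (15.27 against 8.01) and Slc18a2 (13.56 against 16.60).

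Peptide hormone receptors were called mostly towards adrenal medulla. Of 40 measured 12 were higher there and 2 in ganglion. Npr1, the natriuretic peptide receptor, read 11.48 ± 0.33 in adrenal medulla and 6.24 ± 0.16 in ganglion (37.9-fold), the neuropeptide Y receptor Npy2r 10.58 ± 0.29 in adrenal medulla and 5.89 ± 0.17 in ganglion (25.8-fold) and the angiotensin receptor Agtr2 9.42 ± 0.26 in adrenal medulla and 5.23 ± 0.15 in ganglion (at least 15.7-fold). The angiotensin receptor Agtr1a was 3.57-fold higher, and the PACAP receptor Adcyap1r1, through which splanchnic nerves drive chromaffin cells, 2.14-fold. Adcyap1r1 fell short of 2-fold without adrenal medulla array 3 (0.97) or ganglion array 2 (0.98). Glp1r (4.47-fold) and Ntsr1 (at least 4.34-fold) were higher in ganglion. Downstream, RGS and G-protein subunits were called mostly towards ganglion, 17 of 44 against 4. Rgs2 read 10.89 ± 0.37 in adrenal medulla and 7.05 ± 0.27 in ganglion and Rgs4 11.31 ± 0.32 in adrenal medulla and 14.66 ± 0.38 in ganglion, in opposite directions. The olfactory-type G protein Gnal (52-fold), Rgs9 (8.23-fold) and the gamma subunit Gng3 (5.36-fold) were also higher in ganglion, as was Gnao1 (2.99-fold). Cyclic nucleotide enzymes were divided, 9 against 10 of 40. Pde5a, which degrades cyclic GMP, was 11.8-fold higher in adrenal medulla and Prkg2, the cyclic GMP kinase, 3.47-fold, alongside Npr1, which makes cyclic GMP. Pde9a (8.92-fold), another cyclic GMP phosphodiesterase, was higher in ganglion, with Adcy8 (at least 3.77-fold) and Pde4b (at least 3.85-fold). Of 37 calcium-handling genes 12 were higher in ganglion, led by the neuronal calcium sensors Vsnl1 (33.9-fold), Ncs1 (19.2-fold) and Hpcal4 (at least 10.7-fold) and by Camk2a (7.36-fold), and 2 in adrenal medulla, the store-release channel Itpr2 (4.02-fold) and the exchanger Slc8a2 (at least 3.23-fold).

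Of 19 neurotrophin and GDNF family genes 7 were higher in ganglion, 1 was higher in adrenal medulla and 11 were not called, with a median difference of -0.32. Ret, the signalling receptor of the GDNF family, read 7.64, 7.80, 7.54 and 6.94 in adrenal medulla and 16.02, 15.65, 15.85 and 16.39 in ganglion. Ngfr, the low-affinity neurotrophin receptor of neurons and of glia, read 8.35, 8.80, 8.59 and 8.37 and 16.38, 16.22, 16.47 and 16.64. Both were far apart on every array, 362-fold and 239-fold. The co-receptor Gfra2 was 2.28-fold higher in adrenal medulla, but adrenal medulla array 2 decided its size (0.83 without it). The call, at an adjusted p of 0.043 by limma, also ended without adrenal medulla array 3 (1.15) and without ganglion array 2 (1.21), 3 (1.13) or 4 (1.08). It ended too without ganglion arrays 1 and 4 together (1.26), and with the replicate block (1.19) and with all clusters tested (1.19), which left the difference as it was and raised the adjusted p.

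Developmental signalling lists were called in both directions. In the BMP, TGF-beta and activin list 10 of 50 were higher in adrenal medulla and 8 in ganglion. Gdf10 (at least 106-fold), Eng (46.6-fold), an endothelial co-receptor, Bmp7 (37.6-fold) and the BMP target Id2 (25.7-fold) led in adrenal medulla, and Bmp3 (at least 8.91-fold), Fstl4 (4.64-fold), Bmp5 (at least 4.41-fold) and the activin antagonist Fst (4.18-fold) in ganglion. In the Wnt list 10 of 48 were higher in adrenal medulla and 6 in ganglion. Lgr5, a receptor for R-spondins, read 14.51 ± 0.30 in adrenal medulla and 8.44 ± 0.21 in ganglion (66.9-fold), and the co-receptor Lrp5 was 13.6-fold higher. The secreted antagonists Sfrp5 (20.9-fold), Dkk3 (14.9-fold), Sfrp1 (5.8-fold) and Dkk1 (at least 3.73-fold) were all on the ganglion side. In the hedgehog and Notch list Hhip (at least 14-fold) and Boc (6.56-fold) followed Dlk1 in adrenal medulla, and Dner (15.8-fold), Hey2 (7.36-fold) and the Schwann cell ligand Dhh (at least 5.44-fold) were higher in ganglion. Imprinted genes gave 5 of 28 higher in adrenal medulla, Dlk1, Peg10 (7.95-fold), Nnat (5.73-fold), Grb10 (2.93-fold) and Igf2 (2.71-fold), and 1 in ganglion, Mest (2.11-fold), which fell short of 2-fold under repeated quantile normalization (-0.93), under median centring (-0.99), with the control-feature covariate (-0.91) and without ganglion array 2 (-0.99). In the growth factor list Fgfr2 (at least 13.6-fold), Igfbp7 (13.3-fold), Igfbp3 (4.08-fold) and Igf1r (3.29-fold) were higher in adrenal medulla, and Fgf14 (10.3-fold) and Spry4 (10.2-fold) in ganglion.

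Energy metabolism and mitochondrial genes differed in several places. Of 25 glycolytic genes 11 were higher in ganglion and 0 in adrenal medulla, with a median difference of -0.78. They included the neuronal glucose carrier Slc2a3 (11.7-fold), Aldoc (10.4-fold), the heart-type lactate dehydrogenase Ldhb (9.33-fold) and the lactate carrier Slc16a1 (8.38-fold), and the neuronal enolase Eno2 was 8.12-fold higher. In the citric acid cycle Pcx (6.4-fold), pyruvate carboxylase, and Suclg2 (3.82-fold) were higher in adrenal medulla and Pdha1 (3.09-fold) and Pdk4 (3-fold) in ganglion. Nuclear-encoded respiratory subunits gave 14 of 73 higher in ganglion, with cytochrome c Cycs (5.52-fold), Ndufa4 (4.38-fold) and Cox5a (4.1-fold) first. The 2 higher in adrenal medulla were the tissue-specific forms Cox8b (at least 4.76-fold) and Cox4i2 (2.12-fold). Cox4i2 fell short of 2-fold with the control-feature covariate (0.67) and without ganglion arrays 1 and 4 (0.92). The 14 fell to 9 under median centring and without ganglion array 2, and to 8 under repeated quantile normalization. Of 31 genes of mitochondrial import and dynamics 4 were higher in adrenal medulla and 7 in ganglion, with a median difference of -0.21. Lonp1, the matrix protease, read 11.32, 11.65, 11.17 and 11.59 in adrenal medulla and 8.69, 8.12, 7.95 and 8.64 in ganglion, without overlap (8.48-fold), and Hspa9 was 2.91-fold and Hspd1 2.69-fold higher. Ppargc1a, the coactivator of mitochondrial biogenesis, was 6.3-fold higher in ganglion, with the import receptor Tomm70a (3.19-fold). Of 72 mitochondrial ribosome genes 3 were called, a share below that of all protein-coding genes.

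The endoplasmic reticulum genes that were called were all higher in adrenal medulla. Of 50 folding and secretion genes 18 were higher there and 0 in ganglion, 32 were not called, 41 differences were positive, and the median was 0.83. Ern1, the IRE1 sensor of unfolded protein, read 12.35, 12.08, 12.14 and 12.41 in adrenal medulla and 8.28, 7.86, 8.21 and 8.32 in ganglion. The pools of each tissue lay close together, and the difference was 4.08 ± 0.13 (adjusted p = 2.9e-09, 16.9-fold). The chaperone partner Dnajc3 was 4.95-fold higher, the disulfide isomerase P4hb 4.02-fold, Herpud1 3.72-fold and the chaperone Hspa5 2.39-fold. The count was 29 under repeated quantile normalization. Of 31 cytosolic ribosomal protein genes 3 were higher in adrenal medulla (9.7%), near the 10% of all genes above the bound. Of all 31, 30 differences were positive, and the median of 0.50 dropped to 0.14 with the control-feature component as a covariate, which left no call. Proteasome genes gave 5 of 38 higher in ganglion (13.2%), near the 13.1% of all genes above the bound, and 34 negative differences. Lysosomal hydrolases and the vacuolar proton pump went different ways. Of the 39 genes 14 were higher in adrenal medulla, led by the cathepsins Ctsh (8.72-fold), Ctsf (6.74-fold) and Ctss (4.66-fold), with the pump subunit Atp6v0e (5.79-fold) among them. In ganglion 9 were higher, all of them subunits or partners of the pump, such as Atp6v0d1 (3.3-fold), Atp6v1g2 (2.98-fold) and Atp6v1e1 (2.82-fold). The 9 became 5 with the control-feature covariate.

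Immediate early genes, which respond to activity and stress within minutes, were called mainly towards adrenal medulla. Of 31 measured 12 were higher in adrenal medulla, 1 was higher in ganglion and 18 were not called, with a median difference of 0.21. Fosl2 read 12.08, 12.15, 11.96 and 12.19 in adrenal medulla and 6.54, 6.39, 6.45 and 6.23 in ganglion, with little spread (51.7-fold). Fos read 9.89, 9.28, 7.27 and 7.23 and 6.07, 5.76, 5.40 and 5.61, and here the adrenal medulla pools parted, with pools 1 and 2 high and pools 3 and 4 low, though all were above ganglion, where array 3 was below the bound (at least 6.48-fold, adjusted p = 0.0041). Egr1 was 12.3-fold higher and Jun 9.92-fold. Nr4a1 read 11.69, 11.11, 11.17 and 14.05 in adrenal medulla and 9.97, 10.22, 10.05 and 9.79 in ganglion. Pool 4 stood far above the other adrenal medulla pools, and the gene was 3.99-fold higher. It lost its call with array weights (1.93), with the control-feature covariate (1.81) and without ganglion arrays 1 and 4 (1.87). Fosb read 5.30 ± 0.22 against 5.09 ± 0.11, Arc 5.66 ± 0.28 against 5.34 ± 0.24 and Atf3 5.98 ± 0.09 against 6.10 ± 0.16, without a call. The mean log2 signal over the list was 7.24 to 7.66 on adrenal medulla arrays and 6.44 to 6.72 on ganglion arrays.

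The circadian clock list was also called towards adrenal medulla, 8 of 21 against 1 in ganglion, with a median difference of 0.92. Nr1d1, the REV-ERB-alpha repressor of the clock, read 14.30, 12.20, 13.47 and 13.22 in adrenal medulla and 7.77, 10.90, 9.74 and 9.58 in ganglion. Every adrenal medulla pool was above every ganglion pool, yet pools within a tissue lay far apart, pool 1 being highest in adrenal medulla and pool 2 in ganglion. Dbp, an output factor of the clock, read 12, 9.55, 10.60 and 10.69 and 8.05, 9.32, 8.0 and 7.86 with the same pools highest. Arntl, which Nr1d1 represses, read 7.61, 10.25, 9.45 and 9.50 and 9.42, 7.91, 9.42 and 9.50, lowest in exactly those pools, and its difference of 0.14 ± 0.57 between the tissues did not pass the test (adjusted p = 0.87). Per2 was 2.88-fold higher in adrenal medulla, Bhlhe40 6-fold and Rora 6.01-fold, while Rorb was 6.88-fold higher in ganglion. The labels used here give no hour of collection. With the control-feature component as a covariate 5 members were called higher in adrenal medulla in place of 8. Dbp (1.38) and Per2 (1.5) lost their calls with it, and also without ganglion arrays 1 and 4 (2.05 and 1.56).

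**Figure D5:**
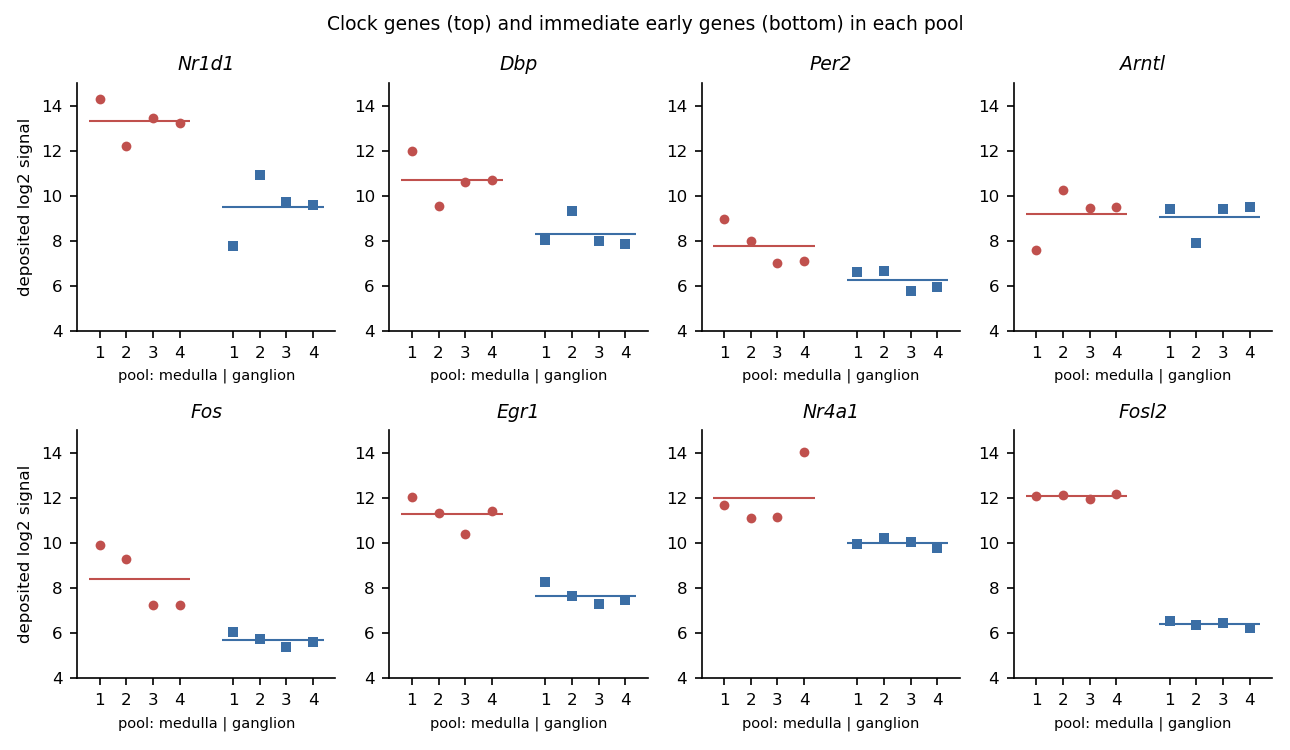
Deposited log2 signal of 4 clock genes (top) and 4 immediate early genes (bottom) in adrenal medulla pools 1 to 4 (red circles) and ganglion pools 1 to 4 (blue squares), with lines at the means. Pool 1 of adrenal medulla and pool 2 of ganglion are highest for Nr1d1 and Dbp and lowest for Arntl, and Fos is high in adrenal medulla pools 1 and 2.

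Genes known to respond to glucocorticoid, the steroid that reaches the medulla from the cortex, were called 6 of 23 towards adrenal medulla and 1 towards ganglion. Mt2, a metallothionein, read 17.36, 16.66, 16.98 and 15.94 in adrenal medulla and 11.15, 12.08, 12.35 and 11.48 in ganglion, and Mt1 16.25, 15.58, 16.08 and 15.41 and 11.94, 13.01, 13.18 and 12.15. Neither overlapped, and they were 31.4-fold and 9.57-fold higher in adrenal medulla. The receptor co-chaperone Fkbp5 was 2.4-fold higher. The receptor Nr3c1 read 9.61 ± 0.08 against 9.21 ± 0.16, Tsc22d3 7.71 ± 0.18 against 8.37 ± 0.34 and Sgk1 7.88 ± 0.16 against 7.36 ± 0.27, none of them called. The count was 10 under median centring and under repeated quantile normalization. In the hypoxia-inducible list 7 of 24 were higher in adrenal medulla, with Ndufa4l2, Adm, Arnt2 (15.4-fold) and Epas1 (6.63-fold), which encodes HIF-2-alpha, and 2 in ganglion, Ndrg1 (5.7-fold) and Egln3 (4.45-fold). Of 32 nuclear receptors 5 were higher in adrenal medulla, 2 in ganglion and 25 were not called. Those higher in ganglion were Rxrg (at least 5.99-fold) and Thra (2.01-fold). Thra fell short of 2-fold under median centring (-0.92) and repeated quantile normalization (-0.87), and without adrenal medulla array 2 (-0.92) or 4 (-0.98) or ganglion array 3 (-0.95) or 4 (-0.99). Nr5a1, the master regulator of steroid-producing cells, was at least 13.9-fold higher in adrenal medulla, the vitamin D receptor Vdr 14.2-fold, the bile acid receptor Nr1h4 at least 5.12-fold and the thyroid hormone receptor Thrb 6.29-fold. Cell cycle genes were almost all uncalled, 33 of 35, with cyclin D2 an exception. Ccnd2 read 13.98, 14.02, 14.04 and 14.19 in adrenal medulla and 8.54, 9.03, 8.42 and 7.94 in ganglion, without overlap (47.6-fold).

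Markers of other cell types moved with the tissue, and their part in the results above was not tested. Endothelial genes were higher in adrenal medulla, 15 of 27 against 2, and the mean log2 signal of the list was 8.64 to 8.77 on adrenal medulla arrays and 7.03 to 7.18 on ganglion arrays, with 5 members at or below the bound in each. Plvap, which forms the diaphragms of fenestrated capillaries, read 13.73, 13.02, 13.54 and 13.30 in adrenal medulla and 6.75, 6.64, 7.31 and 7.10 in ganglion. Emcn and the VEGF receptor Kdr followed at 14.32 ± 0.37 against 7.92 ± 0.21 and 13.04 ± 0.35 against 7.40 ± 0.21. All 3 genes were separated on every array, 87.2-fold, 84.4-fold and 49.9-fold. Endothelial Cdh5 was 7.83-fold higher and Pecam1 7.54-fold, while Cldn5 read 5.97 ± 0.10 against 5.68 ± 0.32 and Vwf 6.45 ± 0.14 against 7.23 ± 0.06, without a call. The lipid carrier Mfsd2a, a gene of barrier endothelium, and the water channel Aqp1 were higher in ganglion, 6.3-fold and 25.6-fold. Pericyte and smooth muscle genes were called 7 of 16 towards adrenal medulla, with Abcc9 (14.2-fold), Pdgfrb (12.9-fold), Tagln (3.57-fold) and Rgs5 (3.45-fold) first, at list means of 7.88 to 7.93 and 6.78 to 6.84.

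Schwann and satellite glia genes were called 15 of 24 towards ganglion and 0 towards adrenal medulla, with list means of 9.64 to 10.00 on ganglion arrays and 7.64 to 7.74 on adrenal medulla arrays. At or below the bound were 5 of these genes in ganglion and 4 in adrenal medulla. Mal (34.4-fold), Fabp7 (33.2-fold) and Gjc3 (29.9-fold) followed Ngfr, Cdh19 was 18-fold higher, the neuregulin receptor Erbb3 7.63-fold and the glial factor Sox10 4.33-fold. Adipocyte genes were called 7 of 14 towards ganglion, with Car3 (at least 47-fold) first, and 2 towards adrenal medulla, Lipe and Cox8b. Ucp1 read 4.36, 4.42, 4.34 and 4.43 in adrenal medulla, at background, and 6.41, 7.86, 6.28 and 5.57 in ganglion. Adipoq was at least 2.31-fold higher in ganglion, and Fabp4 read 9.54 ± 0.29 against 9.09 ± 0.50 without a call. Fibroblast genes went both ways, 5 and 8 of 24. Mgp (16.9-fold), Loxl1 (9.06-fold), Col6a1 (8.18-fold) and Bgn (5.27-fold) were higher in adrenal medulla and Thy1 (14.4-fold), Dcn (8.96-fold), Lum (8.38-fold) and Postn (4.75-fold) in ganglion. Macrophage genes were called 8 of 21 towards adrenal medulla, with Ctss, Cd68 (4.19-fold) and Lyz2 (3.88-fold) first, and 1 towards ganglion. The adrenal medulla count dropped to 3 with the control-feature covariate and to 5 without ganglion arrays 1 and 4. Lymphocyte, skeletal muscle and erythrocyte markers were mostly at background in both tissues, with 13 of 21, 13 of 20 and 2 of 3 at or below the bound in adrenal medulla. In the sensory ganglion list 2 of 12 members were higher in ganglion, among them Avil (272-fold), 1 was higher in adrenal medulla and 9 were not called.

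Complement and coagulation genes were called more often towards adrenal medulla (40%) than towards ganglion (13.3%). For chemokine genes the shares were 13.2% and 7.9%, the latter below the 9.17% of all protein-coding genes. Of 30 complement and coagulation genes 12 were higher in adrenal medulla and 4 in ganglion. The thrombin receptor F2r read 13.66 ± 0.21 in adrenal medulla and 7.11 ± 0.62 in ganglion (94-fold), C7 was 26.7-fold higher, Masp1 at least 9.14-fold and Procr 7.62-fold, while F13a1 (4.87-fold), tissue factor F3 (3.87-fold) and C4b (3.02-fold) were higher in ganglion. Interferon-stimulated genes gave 5 of 27 higher in adrenal medulla, Ifitm2 (51.2-fold) and Rsad2 (6.57-fold) first, a count that was 3 without adrenal medulla array 4 and 2 without ganglion array 3. Of 38 chemokine genes 5 were higher in adrenal medulla, with Cxcl14 (47.1-fold) and Ccl19 (at least 3.71-fold) first, and 3 in ganglion, Cxcr4 (60.8-fold), Ccl11 (28.3-fold) and Ackr1 (at least 22.9-fold).

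Solute carriers for amino acids and glucose gave 5 of 39 higher in adrenal medulla and 12 in ganglion. The taurine carrier Slc6a6 read 15.07 ± 0.34 in adrenal medulla and 10.31 ± 0.12 in ganglion (27.2-fold), and Slc38a4 (at least 20.9-fold) was next. Slc6a15 (31.3-fold), a carrier of branched-chain amino acids in neurons, and Slc7a7 (9.14-fold) were higher in ganglion. In acid-base and water transport Car3 (at least 47-fold), Slc4a4 (16.1-fold) and Clcn6 (9.77-fold) were higher in ganglion and Slc4a10 (6.19-fold) in adrenal medulla. Ganglioside genes parted between St3gal5, which makes the simple ganglioside GM3, at 12.21 ± 0.90 in adrenal medulla and 8.58 ± 0.28 in ganglion (12.4-fold higher in adrenal medulla), and St8sia1, the next sialyltransferase, at 7.33 ± 0.17 in adrenal medulla and 10.59 ± 0.46 in ganglion (9.55-fold higher in ganglion), with St6galnac5 (at least 29-fold). Among genes of cell survival Nmnat2, a maintenance factor of axons, was 37-fold higher in ganglion and Bcl2, which blocks apoptosis, 11-fold, while the death receptor Tnfrsf1a (5.95-fold) and the caspase Casp8 (3.75-fold) were higher in adrenal medulla.

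Families formed from symbol stems, with no list made by hand, numbered 323 with at least 8 measured protein-coding members. They were ranked on the same calls, so the shares are descriptions. On the ganglion side the stem Rtn (6 of 8 members, 75%) and the beta-tubulins (Tubb, 6 of 8) had the highest shares. Rtn included the reticulons Rtn1 (3.8-fold), Rtn3 (3.64-fold) and Rtn2 (2.93-fold). A stem drops the number and all that follows it, so other Rtn members need not be reticulons. Next were sodium channels (Scn, 8 of 11) and the clustered beta-protocadherins (Pcdhb, 12 of 20, 60%). Synaptotagmins (Syt, 10 of 17) and the ether-a-go-go potassium channels (Kcnh, 4 of 8) followed. Of the beta-protocadherins, which give neurons individual surface identities, none was higher in adrenal medulla, and Pcdhb9 (5.1-fold), Pcdhb12 (3.64-fold) and Pcdhb2 (at least 2.13-fold) led. Their sequences are near-identical in places, so signal may be shared between neighbouring members. Members of the synaptotagmin family with the largest folds were Syt2 (27.5-fold), Syt9 (25.7-fold) and Syt11 (15.6-fold). On the adrenal medulla side the highest shares, down to Abhd, were those of the Hoxb cluster (5 of 9, 55.6%), the Gimap GTPases (3 of 8, with Gimap4 (15.5-fold) first), the Schlafens (Slfn, 3 of 8, with Slfn5 (3.8-fold) first), the interferon-inducible Ifi genes (4 of 11), aldehyde dehydrogenases (Aldh, 7 of 20, 35%), thioredoxin-domain proteins (Txndc, 3 of 9), the stem Man (3 of 9) and the lipid hydrolases of the Abhd family (6 of 19), in which Abhd2 read 16.90 ± 0.24 in adrenal medulla and 10.88 ± 0.24 in ganglion (65-fold).

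Genes next to the threshold show what a call at its edge looks like. Just inside were Mbd2 at 9.42 ± 0.07 against 8.42 ± 0.14 and Dek at 10.69 ± 0.12 against 9.69 ± 0.19, higher in adrenal medulla, and Impdh1 at 6.53 ± 0.04 against 7.53 ± 0.31 and Nhs at 6.15 ± 0.20 against 7.15 ± 0.17, higher in ganglion. Just outside were Celsr2 at 6.95 ± 0.19 against 7.95 ± 0.15, Mindy3 at 8.32 ± 0.12 against 9.32 ± 0.20, Lcmt1 at 9.36 ± 0.18 against 10.36 ± 0.21 and Pfkfb3 at 6.20 ± 0.07 against 7.20 ± 0.13, which passed the adjusted p but fell short of 2-fold. All 4 genes inside lost their calls, and all 4 outside gained one, in at least 1 alternative. Without any limit on the difference 10363 genes passed, 4699 higher in adrenal medulla and 5664 in ganglion.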

How the data were processed

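RNA of 4 adrenal medulla, 4 superior cervical ganglion and 3 carotid body pools (3, 3 and 10 mice a pool) was extracted with RNeasy Micro columns, amplified from 50 ng and hybridised to Affymetrix mouse transcriptome arrays, per the labels' protocols. The log2 values were those the authors deposited, made, per the submitters' processing notes, by RMA in the Expression Console of Affymetrix, with versions and build not given in the sources used here. On each array 182 to 276 gene values lie above the 16 of a scanner's range, so an unstated rescaling cannot be told apart from RMA, and folds hold on the deposited scale. Arrays carry no read depth, and 4 pools a tissue limit the precision. Nothing says that pools share no mice across groups, so p-values measure the spread between pools.

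Of 65956 transcript clusters 30604 had 1 gene symbol in the platform annotation, 2146 several and 33206 none. The cluster with the highest mean over 11 arrays was kept for each of 355 genes with several, which left 30142 genes, of which 452 shared all values with another. In RefSeq 29834 of them were matched, and 819 symbols were updated. Limma 3.58.1 in R 4.3.3 was fitted to all genes and all 11 arrays with 1 mean per tissue, tested on simulated data, and genes were called where the adjusted p of Benjamini and Hochberg was under 0.05, with a log2 difference of at least 1. Among the genes named as called the largest adjusted p was 0.0429.

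Genes were named by rule: the 15 largest called differences in each direction without overlap, predicted genes and small RNAs left out; up to 4 called members per list and direction; the core genes of each list; up to 3 called members of the 10 families with the highest shares in each direction; and genes nearest the threshold. The members and lists were chosen with earlier results of these data known. Alternatives were other scalings, filters, cluster rules, weights, covariates, a replicate block and leaving out each array. Some items are not analysed here.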

Additional observations from a re-analysis of the deposited data

Results flagged for a closer look

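A level was singled out where 1 of the 4 arrays of a tissue stood apart, that is, where the gap between the highest or lowest array and its neighbour took a larger share of the range of the 4 than Dixon's 95% critical value. Of 804 such sets, from 402 genes named above in each tissue, 35 did, and chance alone marks about 1 in 20. The values below are the log2 signals of the array that stood apart. None is tied to a cause here.

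In adrenal medulla array 1 lay above the other 3 for Cacnb4 (5.72), Lcat (5.79) and Tsc22d3 (7.98) and below the other 3 for Sfrp5 (5.87). Array 2 of adrenal medulla stood below the other 3 for Cyp2e1 (5.05), Gstm2 (11.04), Kcnk3 (14.67), Mest (8.31) and Tfrc (8.76) and above the other 3 for Dek (10.86), Id2 (15.65) and Nefh (7.41). For adrenal medulla array 3 the level was below the other 3 for Abcb1b (17.49) and Cyp21a1 (18.27) and above the other 3 for Tubb3 (8.11). Array 4, the last of adrenal medulla, was above the other 3 for Cdh5 (12.19) and below the other 3 for Cdh8 (4.33), Chat (4.20), Dbh (19.84), Maob (12.30) and Snap25 (16.64).

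In ganglion array 1 lay above the other 3 for Car3 (10.97), Mc2r (5.64) and Slc16a1 (11.28). Array 2 of ganglion stood below the other 3 for Arntl (7.91), Cacna1d (6.77) and Celsr2 (7.73) and above the other 3 for Ccl11 (11.20), Dbp (9.32) and Postn (12.62). For ganglion array 3 the level was below the other 3 for Chat (4.21) and Penk (5.13). Array 4, the last of ganglion, was below the other 3 for Mbd2 (8.21) and Nnt (6.75) and above the other 3 for Syt9 (12.41).

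Some of these genes carry results above. Kcnk3 read 15.38, 14.67, 15.34 and 15.45 in adrenal medulla, and array 2, the low one, was still far above every ganglion array. In ganglion array 2 stood apart both for Dbp (highest) and for Arntl (lowest). The Mc2r value of ganglion array 1 was the single ganglion value of that gene above the background bound of 5.45. For Chat, Dbh, Mest and Tfrc at least 2 of the other 3 arrays held the same value to 2 decimals, so that very small gaps passed the limit.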

How the results depend on the processing

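Under the alternatives that gave a value per gene, no called difference of the 402 genes named above turned its direction, and 357 of the 373 called ones were called in the same direction throughout, while 16 missed the threshold in at least 1. The total of 3987 calls was 3095 when protein-coding genes alone were fitted and 3838 to 4114 under the others, except without any limit on the difference, where 10363 genes passed (4699 higher in adrenal medulla and 5664 in ganglion). Leaving out each array in turn gave 3913 to 4095 calls, 1618 to 1800 of them higher in adrenal medulla and 2217 to 2358 in ganglion. With the control-feature component as a covariate the counts were 1631 and 2318, of which 1392 and 1926 were among the original calls. An alternative chosen after seeing the data, without ganglion arrays 1 and 4, gave 1636 and 2202. The cause of these shifts was not tested.

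List counts that moved by more than 1.5 times stand beside their lists, apart from these. The apoptosis list went from 6 to 3 higher in adrenal medulla with the covariate, without ganglion array 4, and without ganglion arrays 1 and 4. The citric acid cycle list went from 6 to 3 higher in ganglion under repeated quantile normalization, with the covariate, and without ganglion arrays 1 and 4. The median of the catecholamine synthesis list, -0.36, was 0.37 with the covariate.

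Replicate numbers did not pair the samples. The deviations of same-numbered arrays from their tissue means correlated at -0.06, -0.08, 0.08 and -0.17. With the replicate number as a block 3986 genes were called, 1729 higher in adrenal medulla and 2257 in ganglion. Of the named calls Gfra2 was lost under the block.

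Signal near background limits what can be said of 13016 genes with both tissues at or below the bound, and signal near the array maximum limits Th, Dbh, Chga and the leading steroid genes.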
